A study of Homo sapiens with 4 samples.

Results

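The clustered histone genes are the genes that encode the core and linker histones from the HIST1 to HIST4 loci. They were taken from the deposited table of NB4 cells by gene name, as every name that opens with HIST, a cluster number from 1 to 4 and H, without names that mark pseudogenes by a final P or PS and digits. This gave 75 of the 60662 genes in the table, from 89 names of which 14 were left out as pseudogene names. By class there were 6 genes for H1, 17 for H2A, 23 for H2B, 14 for H3 and 15 for H4. By the cluster in the name there were 55 genes for HIST1, 15 for HIST2, 4 for HIST3 and 1 for HIST4. Despite their names, 5 of the 75 (HIST2H2BA, HIST2H2BB, HIST2H2BC, HIST2H2BD and HIST3H2BA) are annotated as pseudogenes in RefSeq.

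RNA was sequenced from NB4, a human acute promyelocytic leukemia line that carries PML-RARα, after transduction with the empty vector (2 libraries, called vector cells) or with a vector that expresses JMJD3, the H3K27 demethylase encoded by KDM6B (2 libraries, called JMJD3 cells). Per the methods of the study the vectors were lentiviral and carried GFP, and messenger RNA was selected with oligo(dT) beads. The culture medium and RNA extraction differ between sources, DMEM and Trizol in the labels against RPMI-1640 and a column kit in the methods. The deposited estimated counts summed to 39078443 and 40768225 for vector libraries 1 and 2 and to 35176388 and 34704909 for JMJD3 libraries 1 and 2. These counts are reads times a library factor, so their totals are not depth. Divided by that factor, the totals were 34190262 and 38947060 for vector libraries 1 and 2. For JMJD3 libraries 1 and 2 they were 35431638 and 41876210. By the labels, lane 17 held all libraries but vector library 1, which was on lane 20. Nothing states that each library stands for its own culture, so p-values measure only the spread between these libraries. KDM6B was at 15.8 and 13.7 CPM (counts scaled to library size) in vector libraries 1 and 2 and at 37.8 and 44.2 CPM in JMJD3 libraries 1 and 2. Both JMJD3 libraries were thus above both vector libraries, as their labels state.

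Of the 7 promyelocyte and granulocyte markers examined, MPO was the most abundant, and their summed level was 16634 and 17433 CPM in vector cells and 10544 and 10505 CPM in JMJD3 cells. CD33 and CSF3R went against this sum, CD33 from 65.1 and 68.7 to 83.5 and 79.7 CPM and CSF3R from 56.8 and 60.3 to 70.4 and 69.5 CPM. ELANE, a defining marker of promyelocytes, was near 0, between 0.0268 and 0.339 CPM. All 4 erythroid markers were at 0 in every library. The 3 T cell markers summed to 3.76 and 5.18 CPM in vector cells against 11 and 11.1 CPM in JMJD3 cells, nearly all of it CD2, while CD3E and CD3D stayed under 0.3 CPM. The 3 B cell markers summed to 10.4 and 11.6 CPM against 17.6 and 15.9 CPM, most of it CD79A, with MS4A1 at 0. The monocyte marker CD14 was between 0.219 and 0.348 CPM, and the stromal and epithelial pair COL1A1 and EPCAM summed to 4.63 and 5.49 CPM against 1.29 and 1.21 CPM, most of it EPCAM. Whether these shifts play a part in the histone values was not tested.

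Nucleosomes wrap DNA around pairs of the core histones H2A, H2B, H3 and H4, and the linker histone H1 binds where DNA enters and leaves. Clustered histone genes are switched on in S phase, when new DNA has to be packaged, and most of their messages are not spliced and end in a conserved stem-loop, bound by SLBP, instead of a poly(A) tail. Some of them can also give longer polyadenylated messages, mostly outside S phase, and oligo(dT) selection retains those and largely loses the stem-loop form. How much of each form the levels below hold was not measured, and bulk libraries cannot tell fewer cells in S phase from less RNA per cell.

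The stem-loop of the members was read from the annotation, since it separates the 2 kinds of message and differs between classes. A transcript that ends within 11 bases of a 16-base stem-loop with 6 base pairs and a 4-base loop was found for 61 of the 69 members that matched GENCODE release 44. These transcripts were 386 to 797 bases long, with a median of 493, and ran on for a median of 5 bases after the stem-loop. The most frequent stem-loop, in 37 genes of H1, H2A, H2B and H3, was that of HIST2H2BF. Another with a changed loop was in 9 genes of the same 4 classes, HIST1H2BK among them. The H4 genes had forms of their own with a stem richer in G and C, 8 of them as in HIST1H4J and 4 of them (HIST1H4I, HIST1H4K, HIST2H4A and HIST2H4B) as in HIST2H4A. HIST1H2AG, HIST2H2AC and HIST1H2AK each had a form of their own. The 3′ ends of these genes are shown as DNA with the stem-loop in capitals, from the transcript sequences of GENCODE release 44. At most 5 bases after the stem-loop are shown, so HIST1H4I (9 bases), HIST2H2BF and HIST1H4J (6 bases each) stop before the annotated end.
HIST2H2BF: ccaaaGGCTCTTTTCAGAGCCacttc
HIST1H1C: caaaaGGCTCTTTTCAGAGCCacca
HIST1H2BK: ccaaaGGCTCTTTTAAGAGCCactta
HIST1H2AG: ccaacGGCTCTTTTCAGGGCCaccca
HIST1H4J: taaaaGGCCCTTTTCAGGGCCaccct
HIST1H4I: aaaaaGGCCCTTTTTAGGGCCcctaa
HIST2H4A: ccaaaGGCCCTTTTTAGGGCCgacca

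Clustered histone RNA was scarce in these libraries. Summed over all 75 members vector libraries 1 and 2 held 898 and 964 counts of it and JMJD3 libraries 1 and 2 held 986 and 1088 counts, between 0.0023% and 0.00314% of all counts. Of the 75, 11 had 0 counts in every library, which allows up to 3 reads in a library (counting error only). Scaled to the total reads of each library without TMM, this bound is 0.0716 to 0.0877 CPM. It is thus not on the TMM scale of the other CPM values. The 49 members that did not pass the expression filter had at most 13.6 counts in any library. The filter left 26 members to be tested, 1 for H1, 5 for H2A, 12 for H2B, 3 for H3 and 5 for H4. By name 13 belong to HIST1 and 13 to HIST2. HIST2H2BA (chr1:121107175) and HIST2H2BB (chr1:143846902) start away from the other tested HIST2 genes, which lie between chr1:149782689 and chr1:149887411.

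Most genes for replacement histones are also transcribed outside S phase and have polyadenylated messages. Summed by class, the replacement genes were far more abundant per length than the clustered genes. Among them, though, H1F0 and H2AFY2 were at 0 in every library and H3F3C was at 0.0997 to 0.194 FPKM. The summed FPKM of the 6 replacement H2A genes was 1631 and 1817 in vector cells and 1262 and 1191 in JMJD3 cells, against 18.3 and 17.3, and 16.9 and 20.4, for the clustered H2A genes. Thus this sum stood 58.3 to 105 times above that of the clustered genes. For H3 the same ratio was 246 to 488, and for H1, where all of the replacement sum was H1FX, it was 9.9 to 17.

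**Figure D1:**
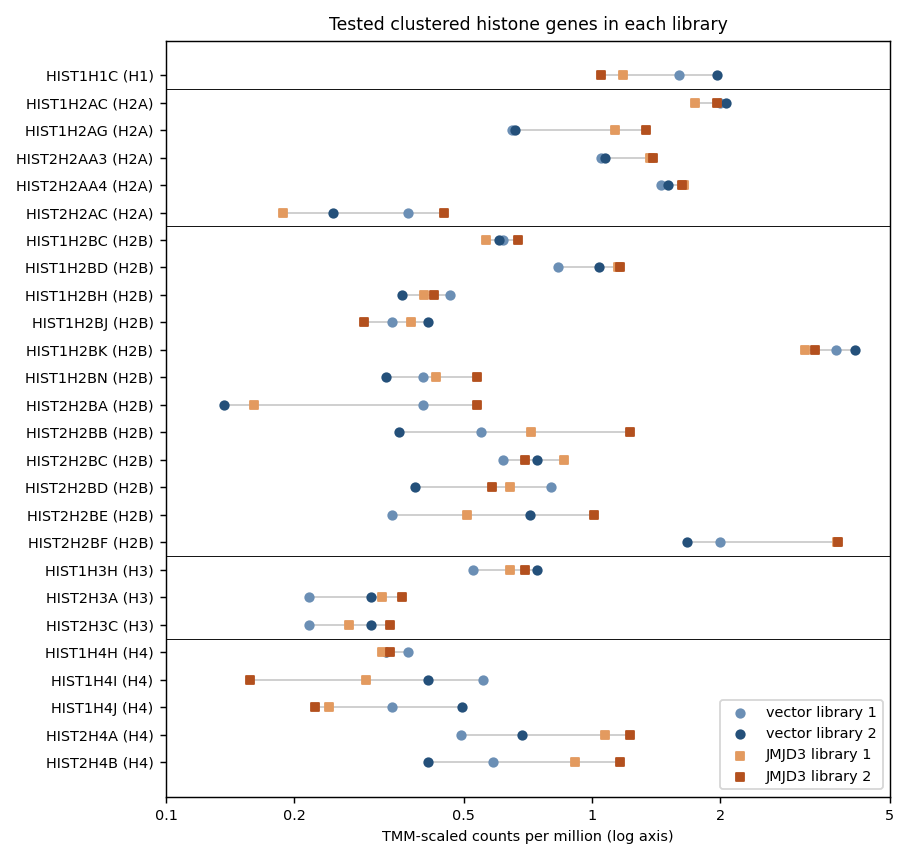
TMM-scaled CPM of the 26 tested members (log axis), with circles for the 2 vector libraries and squares for the 2 JMJD3 libraries, and a grey line from the lowest to the highest. HIST2H2BF, HIST2H4A, HIST2H4B and HIST1H2AG have both JMJD3 libraries to the right of both vector libraries, and HIST1H1C, HIST1H4I and HIST1H4J have them to the left.

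Transcript length describes the models behind the values, and does not measure which message gave the reads. The effective length behind each FPKM value, which is the annotated length less about a fragment, exceeded the whole stem-loop-ended transcript for 13 of the 20 tested members where both are known, and for 5 of 32 members that were not tested. HIST1H2AG had an effective length of 2119 bases against 493 for the transcript that ends in the stem-loop. For HIST2H2BF the lengths were 1529 and 492 bases, and for HIST1H4I 1098 and 397 bases. Values of these genes are thus those of models longer than the stem-loop-ended message. HIST1H1C, at 401 against 731 bases, HIST1H2BK, at 125 against 495 bases, and HIST1H4J, at 117 against 389 bases, had no such excess. An annotated transcript that ends elsewhere, beside the stem-loop-ended one, was present for 10 of 20 tested members and 6 of 41 that were not tested.

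The comparison of JMJD3 with vector cells asks how clustered histone RNA differs once the demethylase is overexpressed. At an adjusted p under 0.05 from edgeR's quasi-likelihood test, 4 of the 26 tested members were higher in JMJD3 cells and 0 were lower. Of all 15246 genes tested, 21.6% were higher and 19.1% lower at the same threshold. With a change of at least 2-fold as well, 2 members were higher and 0 lower, against 7.55% and 2.82% of all genes. The 4 that rose were HIST2H2BF, HIST2H4A, HIST2H4B and HIST1H2AG. Their share was below that of all genes, so the count as such says nothing particular about histone genes. At an unadjusted p under 0.05, 5 were higher and 2 lower, with HIST2H2BB added above and HIST1H1C and HIST1H4I below, beside 26.9% and 24.2% of all genes. The count of 0 lower was also 0 with the DESeq2 Wald test, beside 18.6% of all genes. It was 2 with limma on FPKM values, which passed HIST1H1C and HIST1H4J. Limma called 14.8% of all genes lower with 1 added to FPKM and 15% with 0.1 added. The Wald test called 1 member higher, HIST2H2BF, beside 16.6% of all genes. Limma called 4 higher on each FPKM scale, beside 13.4% of all genes with 1 added and 13.3% with 0.1 added. These were HIST2H2BF, HIST2H4A and HIST2H2BE on both, HIST2H4B with 1 added and HIST1H2BN with 0.1 added. Limma did not pass HIST1H2AG. The median log2 fold change of the 26 was 0.15 (from -1.09 to 1.16), beside 0.04 for all genes tested. It was 0.03 without JMJD3 replicate 2, equal to that of all genes in the same fit, 0.06 without vector replicate 1 and 0.26 without vector replicate 2. With no filter it was 0.02 over 64 genes, beside 0.03 for all genes, and with limma on log2(FPKM + 1) it was 0.07.

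HIST1 lies on chromosome 6 and HIST2 on chromosome 1, and their genes, grouped by the cluster in their names, were set side by side. All 13 tested HIST2 genes had a positive log2 fold change, with a median of 0.37. Of them 4 are annotated as pseudogenes in RefSeq. Among all 15246 genes tested, 8035 were positive, with a median of 0.04. The 2 HIST2 genes that were not tested, HIST2H2AB and HIST2H3D, were at -2.31 and 0.49 with no filter. They had at most 3.97 counts in a library. With near-identical pairs summed 10 HIST2 genes were tested and all were positive, with a median of 0.36. Of the 13 tested HIST1 genes 6 were positive and 7 negative, with a median of -0.13. The HIST1 median was 0.03 with at least 10 counts in every library, which left 11 HIST1 genes, and about 0 on FPKM values. With no filter it was 0.02 over 47 HIST1 genes and -0.13 over the same 13. With DESeq2 size factors and upper quartile scaling all 13 HIST2 genes were again positive, while HIST1 had 4 and 6 positive. On FPKM values 12 HIST2 genes were positive, as they were without vector replicate 1 or JMJD3 replicate 1, and without vector replicate 2 or JMJD3 replicate 2 there were 10. The summed level of HIST2 was 9.18 and 8.61 CPM in vector libraries 1 and 2 and 12.5 and 14.5 CPM in JMJD3 libraries 1 and 2, a log2 ratio of 0.60. That of HIST1 was 14.9 and 16.6 CPM in vector cells and 14 and 14.8 CPM in JMJD3 cells, a log2 ratio of -0.13. In neither sum did the groups overlap, and JMJD3 cells lay above vector cells for HIST2 and below them for HIST1. The difference between the clusters was not tested.

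**Figure D2:**
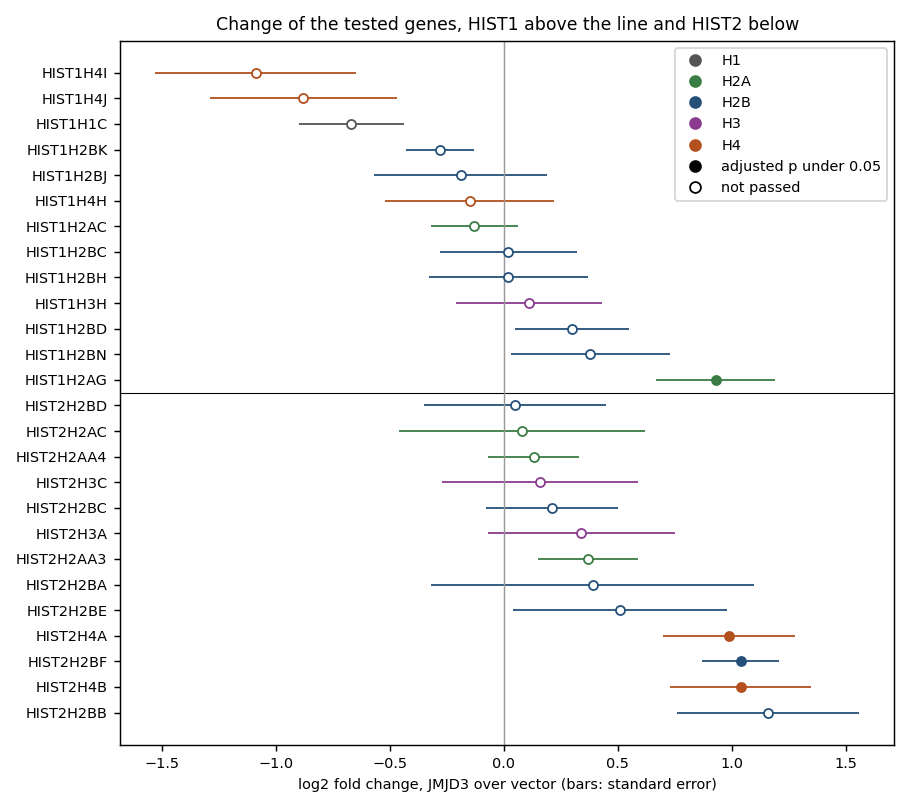
Log2 fold change of JMJD3 over vector cells for the 26 tested members, with standard errors as bars, colors for the classes, and filled dots for an adjusted p under 0.05 from edgeR. The 13 HIST2 genes below the line lie right of 0, and the 13 HIST1 genes above it spread from -1.09 to 0.93; on FPKM values 1 HIST2 gene changes side.

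Summed over all members, the level was 24.2 and 25.2 CPM in vector libraries 1 and 2 and 26.6 and 29.4 CPM in JMJD3 libraries 1 and 2. On counts JMJD3 cells were thus above vector cells, by a log2 ratio of 0.18 with a replicate SD of 0.077. On FPKM the sums were 87.2 and 93.7 against 77.5 and 89.4, where the groups overlap and the log2 ratio of -0.11 has the other sign. No direction holds for the family as a whole across these scales.

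**Figure D3:**
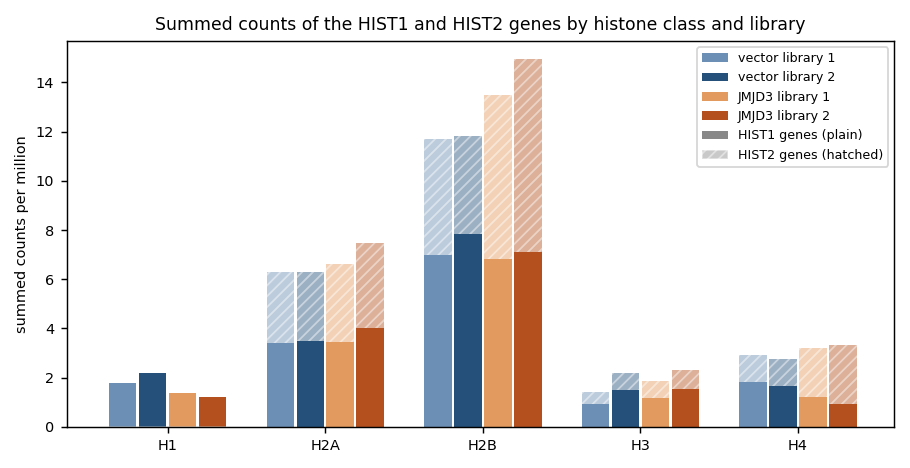
Summed TMM-scaled CPM of each histone class in the 4 libraries, with plain bars for HIST1 genes and hatched bars for HIST2 genes stacked on them; the few counts of HIST3 and HIST4 are not drawn. In H4 the plain part is smaller and the hatched part larger in both JMJD3 libraries, from 1.82 and 1.65 to 1.21 and 0.94 CPM and from 1.08 and 1.1 to 1.98 and 2.39 CPM.

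Among the clustered genes, RNA for linker histone H1, which compacts chromatin between nucleosomes, came almost only from HIST1H1C (now H1-2). It was at 1.6 and 1.97 CPM in vector libraries 1 and 2 and at 1.18 and 1.05 CPM in JMJD3 libraries 1 and 2. Both JMJD3 libraries were lower than both vector libraries. The log2 fold change was -0.67 (standard error, SE, 0.23, edgeR adjusted p = 0.0543), just short of the threshold. It passed in 7 of 15 alternative fits, with adjusted p between 0.0275 and 0.301, among them DESeq2 size factors, limma on FPKM and the fit within lane 17, where the lone vector library is assumed to vary like the others. The other 5 clustered H1 genes were not tested, and HIST1H1A and HIST1H1T had no counts.

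H2A forms with H2B the dimers that flank the tetramer of H3 and H4. The 5 tested H2A genes had a median log2 fold change of 0.13, which was from -0.03 to 0.31 when each library was left out, and 1 of them passed. This was HIST1H2AG (now H2AC11), at 0.648 and 0.658 CPM in vector libraries 1 and 2 and at 1.13 and 1.34 CPM in JMJD3 libraries 1 and 2. The vector libraries were close to each other and both JMJD3 libraries lay above them. It rose by a log2 fold change of 0.93 (SE 0.26, edgeR adjusted p = 0.0285), on 24 to 49.7 counts a library. The call was lost in 8 of 15 alternative fits, where its adjusted p reached 0.249, from 0.0197 over the others. With a library left out, which leaves a group of 1, its log2 fold change was from 0.80 to 1.05 and it did not pass. On FPKM with 1 added its log2 fold change was 0.28, a scale that shrinks low genes.

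Per length, HIST2H2AA4 and HIST2H2AA3 were the most abundant H2A genes tested, with 4.88 and 5.15 FPKM against 5.31 and 5.43 for HIST2H2AA4, and 3.72 and 3.85 FPKM against 4.67 and 4.86 for HIST2H2AA3. These 2 genes are near-identical copies between which reads could be divided, so their counts were also summed. The sum was 2.5 and 2.58 CPM in vector cells and 3 and 3.02 CPM in JMJD3 cells, with a log2 fold change of 0.25 (SE 0.16, edgeR adjusted p = 0.25). Its groups did not overlap, with JMJD3 cells above, but the difference did not pass. HIST2H2AC was at 3.01 and 2 FPKM in vector cells and at 1.41 and 3.54 FPKM in JMJD3 cells, where the JMJD3 libraries lie on both sides of the vector libraries. Its log2 fold change of 0.08 was negative on FPKM values.

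H2B made up 46.8% to 51% of clustered histone counts. Of its 12 tested genes 1 passed, and the median log2 fold change was 0.25. HIST2H2BF (now H2BC18) was at 2 and 1.67 CPM in vector libraries 1 and 2 and at 3.75 and 3.78 CPM in JMJD3 libraries 1 and 2. The JMJD3 libraries were almost equal and well above both vector libraries. It rose by a log2 fold change of 1.04 (SE 0.17, edgeR adjusted p = 0.00564), on 63.9 to 140 counts a library. It is the member that passed in all 15 alternative fits, with log2 fold changes from 0.75 to 1.12 and adjusted p from 0.000167 to 0.0244. A longer annotated form of the gene shares exon bases with FCGR1A on the opposite strand, and without stated strand reads of the 2 genes cannot be told apart. FCGR1A was at 21.2 and 20.9 CPM in vector cells and at 23.9 and 22.2 CPM in JMJD3 cells, and its log2 fold change of 0.13 did not pass (edgeR adjusted p = 0.324).

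HIST1H2BK had the highest FPKM of all tested members, 32.6 and 36 in vector libraries 1 and 2 and 25.3 and 28.3 in JMJD3 libraries 1 and 2, a scale raised by its effective length of 125 bases. Both JMJD3 libraries were lower, and the log2 fold change on counts was -0.28 (SE 0.15, edgeR adjusted p = 0.183). HIST2H2BC and HIST2H2BD, both pseudogenes in RefSeq, overlap other annotated genes on the same strand and had log2 fold changes of 0.21 and 0.05 that did not pass, and HIST2H2BD was at -0.39 without vector replicate 2. HIST2H2BC was named after its values were seen. The largest log2 fold change of the 26 tested members, 1.16, was that of another such pseudogene, HIST2H2BB. It was at 0.548 and 0.352 CPM in vector libraries 1 and 2 and at 0.719 and 1.23 CPM in JMJD3 libraries 1 and 2. The groups did not overlap, but the JMJD3 libraries were far apart, and it did not pass (SE 0.40, edgeR adjusted p = 0.0553). In 5 of 15 alternative fits it did, with adjusted p from 0.0141 to 0.409. The other 7 tested H2B genes had log2 fold changes from -0.19 to 0.51, and none passed with edgeR. HIST2H2BE (0.51, adjusted p from 0.02 to 0.971 over its alternatives) passed with limma on both FPKM scales, and HIST1H2BN (0.38, 0.0481 to 0.868) on that with 0.1 added. Without each library in turn the median of H2B was between 0.00 and 0.13, and with no filter it was 0.02.

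H3 carries the lysine that JMJD3 demethylates. Summed per length, its clustered genes were at 3.13 and 6.38 FPKM in vector cells and at 3.61 and 5.18 FPKM in JMJD3 cells, the lowest of the 4 core classes in each library. The groups overlap in this sum. Among single genes, 0 of the 3 tested passed in either direction with edgeR, the DESeq2 Wald test or limma, nor at an unadjusted p under 0.05 from edgeR, where the count was also 0. HIST1H3H was at 0.537 and 0.777 FPKM in vector libraries 1 and 2 and at 0.651 and 0.707 FPKM in JMJD3 libraries 1 and 2. The JMJD3 libraries lay between the vector libraries. Its log2 fold change on counts was 0.11, and -0.16 without vector replicate 1. HIST2H3A and HIST2H3C, whose transcripts are 99.2% identical, had log2 fold changes of 0.34 and 0.16. Summed, they were at 0.432 and 0.603 CPM against 0.59 and 0.694 CPM, which overlap.

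H4, the most conserved of the histones, had log2 fold changes of opposite sign in the 2 clusters, under every alternative that gave a value for its 5 tested genes. HIST2H4A and HIST2H4B (now H4C14 and H4C15) have transcripts that are 100% identical over 610 bases, so that the division of reads between them is uncertain. HIST2H4A was at 0.493 and 0.686 CPM in vector libraries 1 and 2 and at 1.07 and 1.23 CPM in JMJD3 libraries 1 and 2. HIST2H4B was at 0.586 and 0.411 CPM in vector libraries 1 and 2 and at 0.911 and 1.16 CPM in JMJD3 libraries 1 and 2. In both genes each JMJD3 library was above each vector library, and they rose by log2 fold changes of 0.99 (SE 0.29, edgeR adjusted p = 0.0341) and 1.04 (SE 0.31, edgeR adjusted p = 0.0381). Summed, which removes the division, the pair stood at 1.08 and 1.1 CPM in vector cells and at 1.98 and 2.39 CPM in JMJD3 cells. The vector libraries then lay close together, and the log2 fold change was 1.00 (SE 0.21, edgeR adjusted p = 0.0122). As single genes, HIST2H4A passed in 9 of 14 alternative fits and HIST2H4B in 8 of 14. Neither passed with the DESeq2 Wald test, and within lane 17, which holds 1 vector library, HIST2H4B passed and HIST2H4A did not.

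The 3 tested HIST1 genes for H4 all had negative log2 fold changes, and none passed. HIST1H4J was at 3.17 and 4.59 FPKM in vector libraries 1 and 2 and at 2.06 and 2.03 FPKM in JMJD3 libraries 1 and 2, with a log2 fold change on counts of -0.88 (SE 0.41, edgeR adjusted p = 0.131). Both JMJD3 libraries were below both vector libraries. On FPKM values it passed by limma (adjusted p of 0.0418 with 1 added and 0.0407 with 0.1 added, up to 0.507 over the other alternatives). HIST1H4I, named after its values were seen, was at 0.555 and 0.411 CPM against 0.295 and 0.157 CPM, with a log2 fold change of -1.09 (SE 0.44, edgeR adjusted p = 0.0902), and passed in none of 14 alternative fits. HIST1H4I shares its stem-loop with HIST2H4A and HIST2H4B, so genes with the same stem-loop had log2 fold changes of both signs. Summed over all 12 HIST1 genes for H4, the level was 1.82 and 1.65 CPM in vector cells and 1.21 and 0.94 CPM in JMJD3 cells, a log2 ratio of -0.69. Over the 2 HIST2 genes it was 1.01. The summed level of all H4 genes, 2.93 and 2.74 CPM against 3.24 and 3.4 CPM, differed less than either part, by a log2 ratio of 0.23. On FPKM the sum of all H4 genes was 11.1 and 10.2 in vector cells and 7.46 and 6.49 in JMJD3 cells, which is the other direction. HIST1H4K, which was not tested and had at most 8 counts in a library, was part of this, at 3.96 and 1.96 FPKM against 0.429 and 0.391 FPKM.

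Promoter sequence, the 300 bases around the start in RefSeq GRCh38.p14, was found for 65 of the 75 members. The CCAAT box (CCAAT, either strand) was in 84.6% of them, beside 39.7% of all 27305 genes with promoter sequence. The TATA box as TATAAA (either strand) was in 67.7%, beside 14%, and the octamer ATTTGCAT (either strand), which POU2F1 binds, in 40%, beside 2.19%. Classes differed in what they held. All promoters of H1, H2A, H2B and H3 had CCAAT but only 3 of 13 for H4, and the octamer was in 11 of 16 for H2A and 14 of 18 for H2B, in 1 of 12 for H3 and in 0 of 6 for H1 and 0 of 13 for H4. The HIST1 and HIST2 promoters were alike in this count, with CCAAT in 86% and 81.8%, TATAAA in 68% and 72.7% and the octamer in 44% and 36.4%.

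The promoters of the genes that rose are shown with these letters in capitals, HIST2H2BF at chr1:149812321-149812620 on the minus strand, HIST2H4A at chr1:149832407-149832706 on the plus strand and HIST1H2AG at chr6:27132793-27133092 on the plus strand. That of HIST2H4B, at chr1:149861110-149861409 on the minus strand, has the same sequence as that of HIST2H4A. HIST2H2BF holds CCAAT and the octamer, HIST1H2AG all 3 motifs, and HIST2H4A none of these letters in this window. A match describes the sequence and is not evidence that a factor binds.
HIST2H2BF: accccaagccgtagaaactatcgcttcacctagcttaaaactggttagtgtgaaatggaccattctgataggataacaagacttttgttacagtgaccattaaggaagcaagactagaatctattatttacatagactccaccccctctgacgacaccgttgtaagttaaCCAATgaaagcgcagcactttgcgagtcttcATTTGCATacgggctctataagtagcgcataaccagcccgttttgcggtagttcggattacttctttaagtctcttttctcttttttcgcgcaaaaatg
HIST2H4A: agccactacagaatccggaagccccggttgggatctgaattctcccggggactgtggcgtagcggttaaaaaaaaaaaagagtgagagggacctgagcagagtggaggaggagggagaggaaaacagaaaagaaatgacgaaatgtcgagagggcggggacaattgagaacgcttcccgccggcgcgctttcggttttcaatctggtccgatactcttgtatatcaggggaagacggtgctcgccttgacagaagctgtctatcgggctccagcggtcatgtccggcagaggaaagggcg
HIST1H2AG: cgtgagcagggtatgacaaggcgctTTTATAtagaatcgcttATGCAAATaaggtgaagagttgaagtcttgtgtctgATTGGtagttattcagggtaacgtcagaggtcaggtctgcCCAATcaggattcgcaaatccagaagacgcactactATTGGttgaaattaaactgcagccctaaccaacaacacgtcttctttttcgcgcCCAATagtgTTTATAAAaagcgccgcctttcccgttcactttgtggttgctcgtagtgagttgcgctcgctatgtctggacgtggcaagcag

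Many H2A and H2B genes lie head to head and share the stretch between their starts. For 3 such pairs both genes were tested. HIST1H2BJ and HIST1H2AG start 248 bases apart, and HIST1H2BJ was at 0.339 and 0.411 CPM in vector libraries 1 and 2 and at 0.375 and 0.291 CPM in JMJD3 libraries 1 and 2. These groups overlap, with a log2 fold change of -0.19 beside the 0.93 of HIST1H2AG. Over its 15 alternative fits HIST1H2BJ was from -0.37 to 0.20, with the other sign in 2. HIST2H2BE and HIST2H2AC, 236 bases apart, had log2 fold changes of 0.51 and 0.08, and HIST1H2BC and HIST1H2AC, 246 bases apart, had 0.02 and -0.13, none of which passed with edgeR. The log2 fold change of HIST2H2BE was from -0.05 to 1.11 over its 15 alternative fits. HIST1H2BC and HIST1H2AC also overlap other annotated genes. The genes of these pairs other than HIST1H2AG and HIST2H2AC were named for their position, after their values were seen.

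The machinery that transcribes histone genes and trims their 3′ ends moved in both directions. Of its 22 genes, all tested, 5 rose and 5 fell, with a median log2 fold change of 0.10 beside 0.04 for all genes, and with shares near the 21.6% and 19.1% of all genes. With a library left out from 3 to 8 were higher and from 1 to 8 lower, while the shares of all genes went from 12% to 26.8% and from 7.03% to 26.6%, and with no filter 1 was higher and 3 lower, where 6.99% and 6.55% of all genes were. NPAT, the S-phase coactivator of histone loci, was at 14.2 and 11.1 CPM in vector libraries 1 and 2 and at 33 and 32.9 CPM in JMJD3 libraries 1 and 2. It rose by a log2 fold change of 1.38 (SE 0.14, edgeR adjusted p = 0.00152). CASP8AP2, which works with NPAT at histone locus bodies, was at 37.6 and 21.5 CPM against 57.3 and 63.8 CPM and rose by 1.03 (SE 0.24, edgeR adjusted p = 0.016). In both genes the JMJD3 libraries were above the vector libraries, which for CASP8AP2 stood apart from each other. ZCCHC6, a terminal uridylyltransferase that tags histone messages for decay, was at 13 and 7.51 CPM against 23.1 and 26 CPM, a log2 fold change of 1.26 that passed. LSM1, a part of the decay complex that binds those tails, fell by 0.60 on the log2 scale, from 41.6 and 45 to 29.7 and 27.2 CPM. CASP8AP2 and ZCCHC6 did not pass with no filter, nor LSM1 without JMJD3 replicate 2. SRRT, which links the cap-binding complex to 3′ end formation, fell by 0.57, and POU2F1, the octamer-binding factor, by 0.51, a call lost in 5 of 15 alternative fits (adjusted p from 0.00164 to 0.155). SLBP was at 297 and 267 CPM in vector cells and at 232 and 209 CPM in JMJD3 cells and fell by 0.35 (edgeR adjusted p = 0.0235). Its call was lost with no filter and without either JMJD3 replicate (adjusted p from 0.000961 to 0.288 over 15 alternatives), and it was named after its values were seen.

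Replacement histones, which are deposited independently of replication, had 9 of 12 genes tested, of which 5 fell and 0 rose, with a median log2 fold change of -0.28. Of all genes 19.1% were lower and 21.6% higher. With limma on either FPKM scale 2 were lower, beside 14.8% and 15% of all genes with 1 and 0.1 added. With the replicate block 3 were lower, beside 15.8% of all genes. Without JMJD3 replicate 1 the count lower was 2, and without JMJD3 replicate 2 it was 1, where 8.64% and 7.03% of all genes were lower. At an unadjusted p under 0.05 from edgeR 0 were higher and 6 lower, beside 26.9% and 24.2% of all genes. H2AFZ, which marks promoters, was at 659 and 739 CPM in vector libraries 1 and 2 and at 475 and 431 CPM in JMJD3 libraries 1 and 2, and fell by 0.63 on the log2 scale (SE 0.09, edgeR adjusted p = 0.00357). H2AFX, the variant phosphorylated at DNA breaks, fell by 0.47, from 257 and 312 to 214 and 198 CPM, which did not pass with no filter or without JMJD3 replicate 2. H3F3B, a source of H3.3, fell by 0.36, from 599 and 622 to 481 and 469 CPM, a call lost in 4 of 15 alternative fits (adjusted p from 9.87e-05 to 0.136). In each of these genes both JMJD3 libraries were below both vector libraries.

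Histone chaperones, which escort new histones to DNA, had 20 genes tested, with a median of -0.31. Of these 13 fell and 1 rose, beside 19.1% lower and 21.6% higher of all genes. With the replicate block 7 were lower, beside 15.8% of all genes. The count lower was 4 without JMJD3 replicate 1 (8.64% of all genes) and 3 without JMJD3 replicate 2 (7.03% of all genes). TONSL, which reads new H4 behind the fork, fell by 0.75 on the log2 scale, from 145 and 164 to 90.1 and 93.1 CPM. The importin IPO4, which carries H3 and H4 to the nucleus, fell by 0.61, from 201 and 222 to 140 and 136 CPM, and NASP, which holds the soluble H3 and H4 pool, fell by 0.57, from 581 and 608 to 401 and 400 CPM. NAP1L1, an H2A and H2B chaperone, was the gene that rose, from 742 and 682 to 841 and 834 CPM, a log2 fold change of 0.24 (edgeR adjusted p = 0.0431). Its call was lost in 9 of 15 alternative fits, with adjusted p from 0.00372 to 0.299. The groups overlapped in none of these 4 genes.

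The S phase list, 24 genes of replication onset and nucleotide supply, all tested, had a median of -0.31. It had 14 lower and 2 higher, beside the same 19.1% and 21.6% of all genes. With the replicate block 9 were lower, beside 15.8% of all genes. Without either JMJD3 replicate 4 were lower, where 8.64% and 7.03% of all genes were. MCM7 of the replicative helicase fell by 0.73 on the log2 scale, from 1039 and 1148 to 662 and 661 CPM. The flap endonuclease FEN1 fell by 0.55, from 221 and 239 to 161 and 155 CPM, and the licensing factor CDC6 by 0.53, from 116 and 117 to 79.8 and 81.4 CPM, though CDC6 did not pass without JMJD3 replicate 1. CCNE2, a cyclin of S phase entry, was at 17.9 and 13.6 CPM against 23.3 and 24.7 CPM and rose by a log2 fold change of 0.61, which did not pass in 4 of 15 alternative fits (adjusted p from 0.000168 to 0.0784). Over the 4 lists 37 of the 75 tested genes were lower and 8 higher, and 0 of the lower ones were past 2-fold, a limit that 2.82% of all genes met. Without JMJD3 replicate 1 or JMJD3 replicate 2, fits in which the lone JMJD3 library is assumed to vary like the others, 12 and 9 genes were lower (8.64% and 7.03% of all genes), and 5 and 3 higher (12.8% and 12% of all genes).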

How the data were processed

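Per the labels and methods, RNA of 4 NB4 libraries was made into libraries with a TruSeq kit after poly(A) selection. The submitters' processing notes name CASAVA 1.8, TopHat2 2.0.4, RSEM, edgeR and GRCh38, while the methods name STAR, hg19 and HTSeq-count. The authors deposited for each gene an estimated count and an FPKM value (reads per length and depth) in each library, and columns with the fold change, p-value and FDR of their own comparison, which were not used. Among nonzero counts 98.4% were not whole. Of those up to 500, 93.2% to 93.6% lie within 0.01 of a whole multiple of 1 value per library (1.14, 1.05, 0.993 and 0.829), so they are reads times a library factor.

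Counts were rounded, filtered with filterByExpr (15246 of 60662 genes kept), scaled (TMM) and put through edgeR's quasi-likelihood test (glmQLFit and glmQLFTest of edgeR 4.0.16 in R 4.3.3) in a model of the 2 groups over the 4 libraries without covariates, with Benjamini-Hochberg adjustment over all genes tested. Standard errors (SE) are log2 fold changes, as sizes, over the root of F. CPM uses the TMM-scaled library sizes, and n is 2 libraries a group. Summed levels include members that were not tested and have no test. Effective length is the count over FPKM, scaled in each library on long genes with a single transcript. Gene positions, transcripts and promoters are from GENCODE release 44 and RefSeq GRCh38.p14. Of the members, 69 matched GENCODE, 66 by identifier and the others by symbol.

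Members and lists were chosen with earlier results of these data known. Genes named were, in each class, the up to 3 tested members with the highest mean FPKM and the passing members, in each list the up to 3 largest rises and falls that passed, and KDM6B. Alternatives were upper quartile scaling, size factors and the Wald test of DESeq2 1.42.0, no filter, limma 3.58.1 after adding 1 or 0.1 to FPKM and taking log2, at least 10 counts in every library, a block for the replicate number, each library left out, and a 2-fold limit. Reads after division by the library factor, a crossed block and summed near-identical pairs were added after seeing the data. The tests were also run on simulated counts, and the outcome is not given here. The values of 2 genes are not reported here.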

Additional observations from a re-analysis of the deposited data

How the results depend on the processing

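The count of clustered histone genes higher in JMJD3 cells, 4, was 1 with the DESeq2 Wald test and with no filter on low counts, 2 with the 2-fold limit and from 1 to 2 when each library was left out. The count lower, 0, was 1 with DESeq2 size factors, with at least 10 counts in every library and with reads after division by the library factor (an alternative chosen after seeing the data), 2 with limma on either FPKM scale, and from 0 to 1 when each library was left out (1 without vector replicate 1). For the 4 lists, the 8 higher were 5 with limma on log2(FPKM + 1), 5 on log2(FPKM + 0.1), 2 with no filter, 3 with the 2-fold limit and from 3 to 12 with a library left out. The 37 lower were 0 with the 2-fold limit and from 9 to 50 with a library left out. In those 4 fits the shares of all genes moved too, from 12% to 26.8% higher and from 7.03% to 26.6% lower. A left-out library leaves a group of 1, assumed to vary like the other group. Of all genes, 16.6% were higher with the DESeq2 Wald test, 6.99% with no filter and 7.55% with the 2-fold limit. With limma 13.4% and 13.3% were higher and 14.8% and 15% lower, with 1 and 0.1 added to FPKM. Lower were 20.5% with DESeq2 size factors, 19.5% with at least 10 counts in every library and 19.1% after division by the library factor. The 2-fold limit left 2.82% lower.

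With the replicate block 5 members were higher and 0 lower, and 8 and 23 list genes, beside 21.4% and 15.8% of all genes. Over genes, deviations of same-numbered libraries from their group means correlated at -0.251, and no label says that numbers pair the libraries. With crossed numbers, a replicate block chosen after seeing the data, 5 members were higher and 1 lower, and 10 and 44 list genes, beside 28.4% and 24.7%.

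The log2 ratio of the summed CPM, 0.18, was -0.11 on FPKM with 1 added and -0.12 with 0.1 added, and from 0.11 to 0.25 with a library left out. HIST2H2AC changed sign with limma on log2(FPKM + 1), to -0.069, and on log2(FPKM + 0.1), to -0.13, and with a library left out it was from -0.68 to 0.58. HIST2H2BD was then from -0.39 to 0.61, HIST1H3H from -0.16 to 0.39 and HIST2H3C from -0.12 to 0.45. Over the 33 genes given by the naming rule, 415 values under the alternatives kept direction and side of the threshold, 48 no longer passed, 14 newly passed and 8 changed sign. The cause of these changes was not tested. Most members rest on under 50 counts a library, which limits what can be detected.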
